A study of Mus musculus with 10 samples.

Results

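The 9 genes described here are Sertoli cell genes, read for DNA methylation in germ cells. Sertoli cells are the somatic nurse cells of the seminiferous tubule. The genes are Sox9, Wt1, Gata4, Nr5a1, Amh, Dhh, Clu, Cldn11 and Fshr, 9 of 21887 protein-coding genes on the chromosomes covered. Their members are the listed cytosines of CpG dinucleotides with at least 5 reads in both libraries that lie in the gene or within 2 kb on either side. This rule gave 2258 cytosines in 1485 CpGs, out of 6745376 cytosines in the table. The genes are known for their role in Sertoli cells, and the rule for the cytosines uses read depth and position but no methylation level. No RNA was measured in the files used, so their silence in these cells is background and not a result.

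The assay, reduced-representation bisulfite sequencing (RRBS), cuts DNA with restriction enzymes and so favours fragments rich in CpG. The cells were spermatogonia of male mouse pups at postnatal day 6. All carried the Id4-eGfp transgene of the LT-11B6 line on a C57BL/6 background, whose green signal marks spermatogonia rich in stem cells, and all were EGFP-positive. Cells stained most strongly by an antibody to the surface tetraspanin TSPAN8 made up the TSPAN8-high library, and the most weakly stained ones made up the TSPAN8-low library. Each library holds DNA of 5 pooled sorts, 300 ng in all, and there is 1 library per fraction. No error between replicates can therefore be given, and every test compares these 2 libraries and not the conditions. The other 8 samples of the series, made from chromatin, were not analysed here.

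Methylation at CpG-rich gene starts goes with stable silencing, whereas many silent genes of cell fate keep unmethylated starts. In the embryonic gonad, WT1, GATA4 and NR5A1 work together before and during sex determination. SRY and NR5A1 switch on Sox9, and SOX9 with these factors switches on Amh. Later products of Sertoli cells act on other cells: DHH signals to Leydig and peritubular cells, and claudin 11 seals the blood-testis barrier. The follicle-stimulating hormone of the pituitary reaches Sertoli cells through FSHR.

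The reference table of promoters, from RefSeq on GRCm38.p6 (mm10), holds 3 of the 9 genes, Cldn11, Dhh and Fshr. The 3 windows are shown because they differ in CpG number and carry the levels given next. Each runs from 250 bases before to 50 bases after the listed start, 5′ to 3′ in the direction of transcription, with every CG in capitals. Cldn11 lies on the plus strand at chr3:31149670-31149969, Dhh on the minus strand at chr15:98898491-98898790, and Fshr on the minus strand at chr17:89200626-89200925.
Cldn11: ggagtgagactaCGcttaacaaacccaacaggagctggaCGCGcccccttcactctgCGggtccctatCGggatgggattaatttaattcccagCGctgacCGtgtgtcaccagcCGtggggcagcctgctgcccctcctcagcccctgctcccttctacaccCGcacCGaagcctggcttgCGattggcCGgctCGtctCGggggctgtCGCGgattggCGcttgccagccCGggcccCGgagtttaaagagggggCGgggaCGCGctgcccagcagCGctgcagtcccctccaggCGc
Dhh: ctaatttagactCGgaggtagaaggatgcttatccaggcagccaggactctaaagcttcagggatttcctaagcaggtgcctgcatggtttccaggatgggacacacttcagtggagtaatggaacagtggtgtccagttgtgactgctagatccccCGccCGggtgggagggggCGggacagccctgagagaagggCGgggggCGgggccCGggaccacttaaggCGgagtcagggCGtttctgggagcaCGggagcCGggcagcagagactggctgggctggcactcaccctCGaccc
Fshr: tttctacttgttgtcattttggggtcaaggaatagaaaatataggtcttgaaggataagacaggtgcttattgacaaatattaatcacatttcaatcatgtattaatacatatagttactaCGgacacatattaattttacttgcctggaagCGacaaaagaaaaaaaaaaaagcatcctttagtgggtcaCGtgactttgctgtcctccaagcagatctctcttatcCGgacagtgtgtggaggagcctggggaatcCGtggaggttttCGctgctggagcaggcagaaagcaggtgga

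The window of Cldn11 has 24 CGs, that of Dhh 12 and that of Fshr 6, against a median of 7 over all promoters of the table. In Cldn11, 22 of its CpGs were listed. None of 432 reads over them was methylated in TSPAN8-high cells, which allows up to 0.694%, and 1 of 416 was in TSPAN8-low cells (0.240%). In Dhh, 7 CpGs were listed, with 0 of 175 methylated reads in TSPAN8-high cells and 0 of 194 in TSPAN8-low cells, which allows up to 1.71% and 1.55%. In both windows 1 read can count at several CpGs, so distinct reads can be fewer and the levels allowed higher. In Fshr only 2 CpGs were listed, at positions -98 and -59. Positions count from the start in the promoter table, which for Dhh differs by some bases from the gene end used below. At -98, 3 of 10 reads were methylated in TSPAN8-high cells and 1 of 14 in TSPAN8-low cells. At -59, 3 of 10 reads were methylated in TSPAN8-high cells and 2 of 14 in TSPAN8-low cells. Both CpGs were read on 1 strand only and may share reads. Motifs of 4 kinds of factor were searched on both strands, and no matches overlap. The E-box CACGTG occurs once in Fshr, beginning at position -61, and the CpG at -59 is the one inside it. E-boxes of this kind are bound by USF factors, also in the rodent Fshr promoter. Of all promoters in the table, 7.15% hold this E-box. The GATA factor motif GATAA was found in Fshr at -197 and, on the opposite strand, at -27. Dhh holds it once, on the opposite strand at -221, and 25.4% of all promoters hold it. The motif AAGGTCA, bound by NR5A1, has no match in these 3 windows, and 4.72% of promoters hold it. The SOX factor motif AACAAT has no match in them either, and 10.7% of promoters hold it.

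The median cytosine had 10 reads in either library, over the 9 genes together and over the whole table. By gene, medians ran from 9 in Sox9 and Fshr to 13 in Cldn11 for TSPAN8-high and from 9 in Fshr to 12 in Amh, Dhh and Nr5a1 for TSPAN8-low. The deepest member cytosine had 58 reads in TSPAN8-high cells and 62 in TSPAN8-low cells. The labelled cell type could not be checked from germ cell genes. All 14 measured end windows of 16 such genes (1 kb either side of the start or, where no strand is listed, of the CpG-richer gene end) were below 20% in both libraries, but so were 82.6% of all windows and 30 of 33 windows of other Sertoli genes. Among them were Zbtb16, a transcription factor of undifferentiated spermatogonia, at 0.544% in TSPAN8-high cells and 0.445% in TSPAN8-low cells, and Id4 at 1.64% and 1.23%. The Id4 window had 26916 reads in TSPAN8-high cells and 32249 in TSPAN8-low cells over 96 CpGs, far more than any other window of these lists, in cells that carry an Id4 transgene. The part of the transgene in that level was not tested. Of 9 imprinted genes, whose maternal allele is methylated near the start in the soma, 8 had a window and 8 lay below 20% in both, with Zrsr1 at 0.993% and 0.762% and Plagl1 at 2.78% and 1.04%. The highest of them was Mest, at 13.2% in TSPAN8-high cells and 13.4% in TSPAN8-low cells. A level in pooled cells is a share of DNA molecules, so a level between 0 and 100% can come from a share of cells, of alleles or of sites, which cannot be told apart here.

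The first question was how methylated these somatic genes are in spermatogonia. Fshr was methylated at most sites and Amh at almost none, Sox9 was low over most of its length, and the other 6 genes held both unmethylated stretches and methylated sequence. Of the 2258 member cytosines, 1226 (54.3%) were below 20% in both libraries, against 18.2% of all listed cytosines, and 748 (33.1%) were above 80% in both, against 63.7%. Between 20% and 80% in both libraries lay 88 (3.90%), against 5.09%. No member cytosine was below 20% in one library and above 80% in the other, which was rare over the table too (1805 of 6745376 cytosines). The shares below 20% in both ran from 4.80% in Fshr to 97.8% in Amh, with Sox9 at 88.0%, Dhh at 78.1%, Cldn11 at 63.7%, Wt1 at 57.7%, Nr5a1 at 57.6%, Gata4 at 55.9% and Clu at 54.8%. The members also hold more CpG-dense sites than the table. Cytosines with 3 to 9 listed CpGs in 200 bp had a pooled level of 22.2% in TSPAN8-high cells and 23.5% in TSPAN8-low cells over the members, against 65.0% and 65.8% over the table. Those with at most 2 were at 83.4% and 84.3% over the members, against 89.1% and 89.4% over the table. Where 10 or more CpGs were listed, members stood at 1.16% in TSPAN8-high cells and 0.614% in TSPAN8-low cells, against 2.03% and 2.33%. Sites of this last kind made up 20.3% of the member cytosines and 8.68% of the table.

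**Figure D1:**
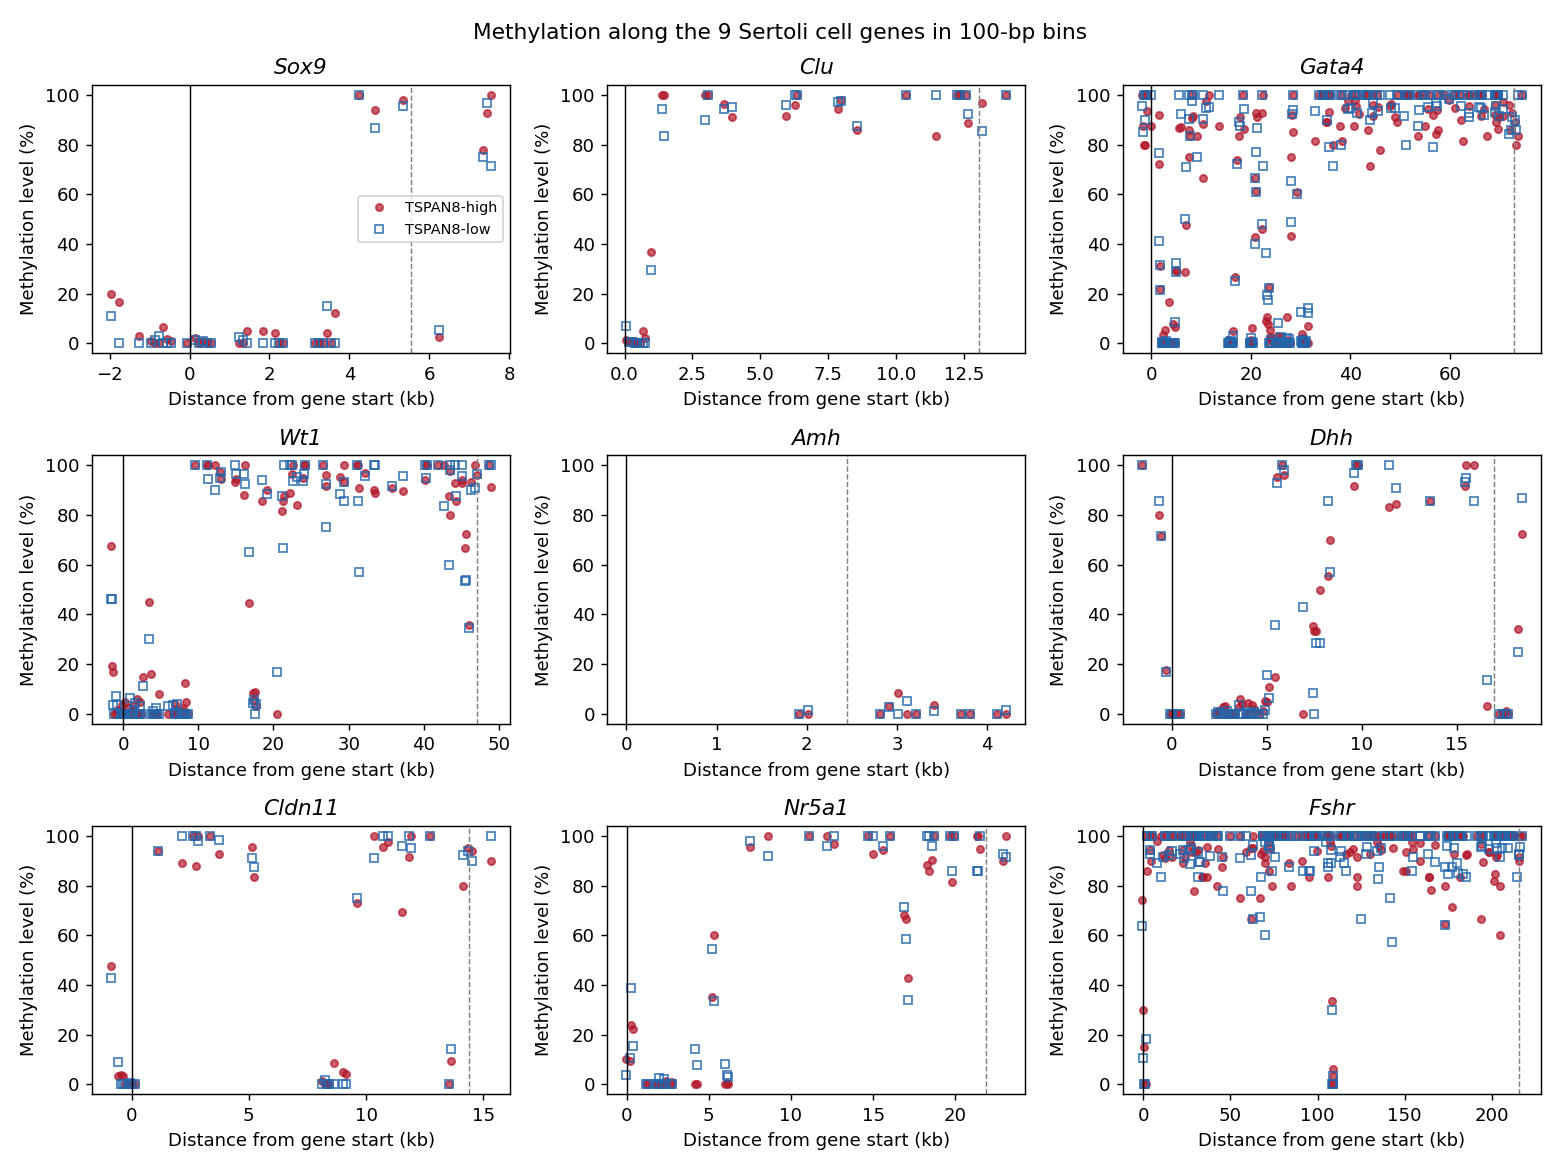
Methylation level (%) in bins of 100 bp against distance from the annotated gene start (kb), 1 panel per gene, filled circles for TSPAN8-high and open squares for TSPAN8-low; the solid line marks the start and the dashed line the other gene end. Sox9, Wt1, Dhh and Cldn11 are near 0 around the start, Amh is near 0 at every listed bin, and in Fshr 24 of 29 tiles of 1 kb are above 80% in both libraries, with the lowest bins near the start and at 108415 to 108941 bp downstream.

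Stretches of low methylation were found in all 9 spans. A low stretch is a run of at least 3 listed bins of 100 bp, each below 20% in both libraries, with at least 5 CpGs and no higher listed bin between. There were 18 such stretches, and levels within them ran from 0.397% to 6.81% in TSPAN8-high cells and from 0.262% to 3.91% in TSPAN8-low cells. Unlisted gaps inside them count towards the lengths given here, and reached 1979 bp in Dhh and 1325 bp in Nr5a1. Of all 19764 protein-coding spans with at least 5 CpGs, 76.9% hold a low stretch and 20.5% hold 2 or more, while 5 of the 9 genes hold 2 or more (Gata4, Wt1, Dhh, Cldn11 and Nr5a1). The summed length was at least 3 kb in 5 of the 9 (Gata4, Wt1, Dhh, Sox9 and Nr5a1), against 10.98% of all spans. Longer spans can hold more, so this contrast is a description. It differed among the members, with 9814 bp in Gata4, 9197 in Wt1, 6538 in Dhh, 5429 in Sox9, 3262 in Nr5a1, 2300 in Amh, 1662 in Cldn11, 693 in Clu and 527 in Fshr.

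**Figure D2:**
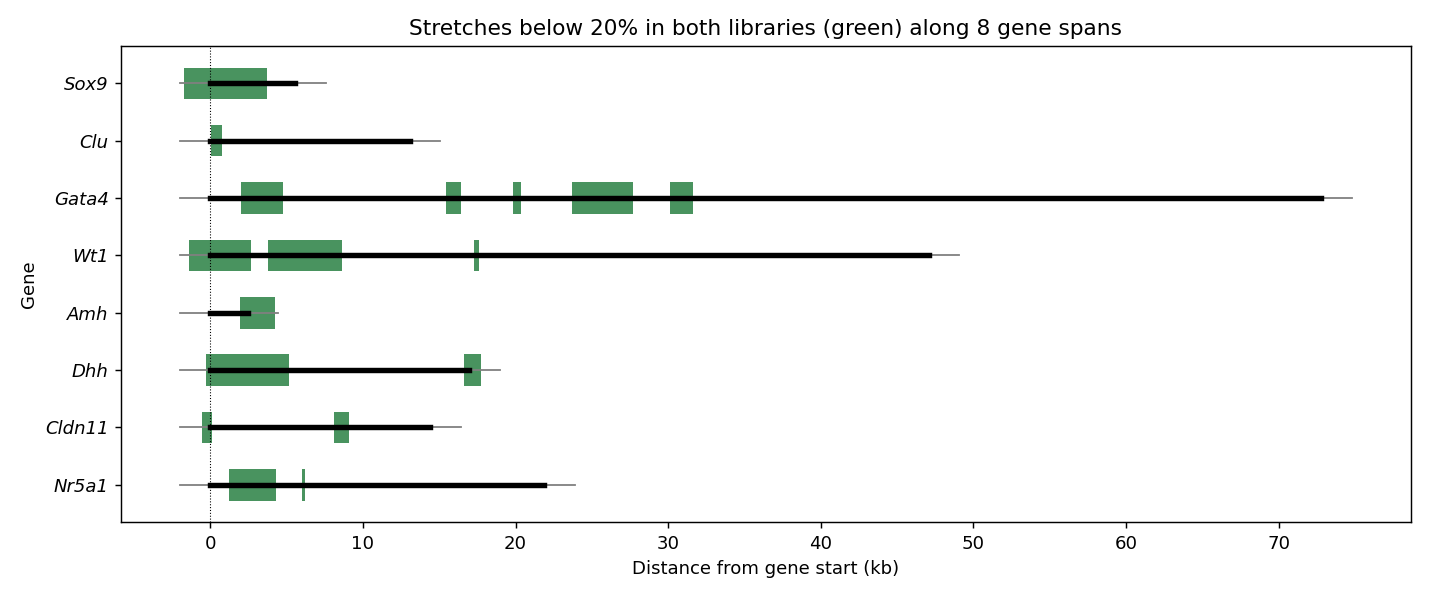
Green boxes are the stretches below 20% in both libraries, drawn along 8 gene spans by distance from the gene start (kb); thick lines are the genes and thin lines their flanks of 2 kb. Gata4 has 5 stretches, all downstream of its annotated start, and the stretches of Sox9, Wt1, Dhh and Cldn11 cross the start; Fshr, with 1 stretch of 527 bp, is left out for scale.

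Among the transcription factor genes, Sox9 and Wt1 had wide unmethylated starts. Sox9, the gene that commits supporting cells to the Sertoli fate (chromosome 11, 112782210 to 112787757), was at 0.838% in TSPAN8-high cells (95% exact interval 0.419 to 1.495) and 0.861% in TSPAN8-low cells (0.431 to 1.54) within 1 kb of its start, over 67 CpGs with 1312 and 1277 reads. Its low stretch covered 5429 bp, from position -1739 to 3689 counted from the start, at 1.55% and 1.08%. That stretch takes in most of the gene, and 1 of 8 tiles of 1 kb was above 80% in both libraries. Within 1 kb of the other end of Sox9 the level was 65.3% in TSPAN8-high cells and 67.9% in TSPAN8-low cells.

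Wt1, a zinc finger factor of the gonadal ridge and kidney (chromosome 2, 105126529 to 105173614), was at 0.673% in TSPAN8-high cells (95% exact interval 0.248 to 1.46) and 1.60% in TSPAN8-low cells (0.801 to 2.84) at its start, over 37 CpGs. One low stretch ran from -1377 to 2635 bp, at 1.61% and 1.24%. A second ran from 3770 to 8647 bp, also counted from the start, at 1.36% in TSPAN8-high cells and 0.939% in TSPAN8-low cells. The last, of 306 bp and 10 CpGs, lay 17277 bp into the gene at 6.81% in TSPAN8-high cells and 3.66% in TSPAN8-low cells. Upstream, the span of Wt1 takes in part of the long non-coding RNA gene Wt1os, which holds 38 of the 345 listed cytosines of Wt1. Of the 25 tiles of 1 kb in Wt1, 10 were below 20% and 13 above 80% in both libraries.

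Gata4, a zinc finger factor needed for the genital ridge and for Amh expression (chromosome 14, 63198914 to 63271712), had few listed sites at its annotated start. That start is the upstream end of the gene as annotated, and possible starts inside the gene were not examined. The 4 cytosines within 1 kb were at 92.1% in TSPAN8-high cells, from 38 reads, and 100% in TSPAN8-low cells, from 39 reads. Only 1 of them lay close to the start, at -10 bp, with 8 reads in TSPAN8-high cells and 11 in TSPAN8-low cells. The others lay from -934 to -897 bp, so the start itself was hardly read. Its 5 low stretches lay inside the gene, 2023 to 31601 bp from that start, and 1 of them, of 4047 bp with 78 CpGs (63243989 to 63248035), was at 1.24% in TSPAN8-high cells and 0.590% in TSPAN8-low cells. Another, of 992 bp (63255296 to 63256287), was at 1.39% and 0.973% over 49 CpGs. Of its 46 tiles, 13 were below 20% in both libraries and 26 were above 80% in both libraries.

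Nr5a1, the nuclear receptor SF-1 that drives steroidogenic genes and Amh (chromosome 2, 38692656 to 38714542), was partly methylated at its start. Over 10 CpGs the level was 13.2% in TSPAN8-high cells (95% exact interval 7.56 to 20.8) and 13.1% in TSPAN8-low cells (8.08 to 19.7), from 114 and 145 reads. The 14 cytosines of that window lay from -19 to 396 bp, and single levels ran from 0 to 33.3% in TSPAN8-high cells and from 0 to 66.7% in TSPAN8-low cells. From 1217 to 4310 bp downstream of the start, 55 CpGs were at 0.441% in TSPAN8-high cells and 1.27% in TSPAN8-low cells. A short stretch of 9 CpGs about 6 kb downstream was at 0.397% and 3.91%. Towards its other end Nr5a1 was methylated, at 95.5% in TSPAN8-high cells and 96.8% in TSPAN8-low cells within 1 kb.

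The secreted products differed in what could be read. Amh, the hormone that makes the Müllerian ducts regress (chromosome 10, 80805240 to 80807679), had no listed cytosine within 1 kb of its start, so the level of its promoter is not given here. All 46 listed cytosines lay from 1939 to 4238 bp after the start, at the end of Amh and downstream. They were at 0.898% in TSPAN8-high cells (5 of 557 reads) and 0.849% in TSPAN8-low cells (5 of 589 reads). Of these 46, 23 lie inside the neighbouring gene Jsrp1, so the low level is shared with that gene.

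Dhh, the hedgehog signal of Sertoli cells (chromosome 15, 98881615 to 98898562), was at 7.07% in TSPAN8-high cells and 6.98% in TSPAN8-low cells within 1 kb of its start, over 14 CpGs with 297 and 301 reads. All 10 listed cytosines from -52 to 31 bp were at 0, as in the printed window, whereas both cytosines at -636 and -657 bp were above 70% in each library. A low stretch ran from -308 to 5122 bp, at 2.68% in TSPAN8-high cells and 1.17% in TSPAN8-low cells over 107 CpGs. A second, of 1107 bp, lay at the other end of Dhh and reached into its neighbour Rhebl1, at 0.870% and 1.36%. Rhebl1 holds 33 of the 265 listed cytosines of Dhh.

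Clu, the secreted chaperone clusterin and a main glycoprotein of Sertoli cells (chromosome 14, 65968483 to 65981548), switched over a short distance. Within 1 kb of its start it was at 1.61% in TSPAN8-high cells and 1.43% in TSPAN8-low cells over 34 CpGs. The listed cytosines of that window all lay downstream of the start, so no level is given for sequence upstream of Clu. Its low stretch ran from 61 to 753 bp. The rest of its body was at 95.9% in TSPAN8-high cells and 96.6% in TSPAN8-low cells.

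The junction and receptor genes stood apart from each other. Cldn11 (chromosome 3, 31149920 to 31164326) was at 3.23% in TSPAN8-high cells and 3.50% in TSPAN8-low cells at its start over 38 CpGs, with a low stretch from -573 to 132 bp. A second low stretch lay inside Cldn11, 8128 to 9083 bp from the start, at 3.35% in TSPAN8-high cells (507 reads) and 0.262% in TSPAN8-low cells (382 reads). The 3 tiles between them ran from 93.9% to 95.2% in TSPAN8-high cells and from 90.2% to 99.0% in TSPAN8-low cells.

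Fshr (chromosome 17, 88984952 to 89200675) was the member with the highest level. Over its span it was at 90.0% in TSPAN8-high cells and 89.9% in TSPAN8-low cells, from 258 CpGs, whereas the other 8 spans ran from 0.898% to 37.3% in TSPAN8-high cells and from 0.849% to 35.4% in TSPAN8-low cells. Within 1 kb of its start, 7 cytosines in 5 CpGs were at 34.9% in TSPAN8-high cells (29 of 83 reads, 95% exact interval 24.8 to 46.2) and 20.7% in TSPAN8-low cells (17 of 82 reads, 12.6 to 31.1). The 2 cytosines at -890 and -889 bp of Fshr were at 83.3% and 66.7% in TSPAN8-high cells and at 80% and 50% in TSPAN8-low cells. The 3 cytosines 750 to 862 bp after the start were at 15%, 0 and 0 in TSPAN8-high cells and at 0 in TSPAN8-low cells. The partial level of the window is a mean over unlike sites. The low stretch of Fshr, 527 bp with 10 CpGs, lay 108415 to 108941 bp downstream, at 2.53% in TSPAN8-high cells and 0.806% in TSPAN8-low cells.

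**Figure D3:**
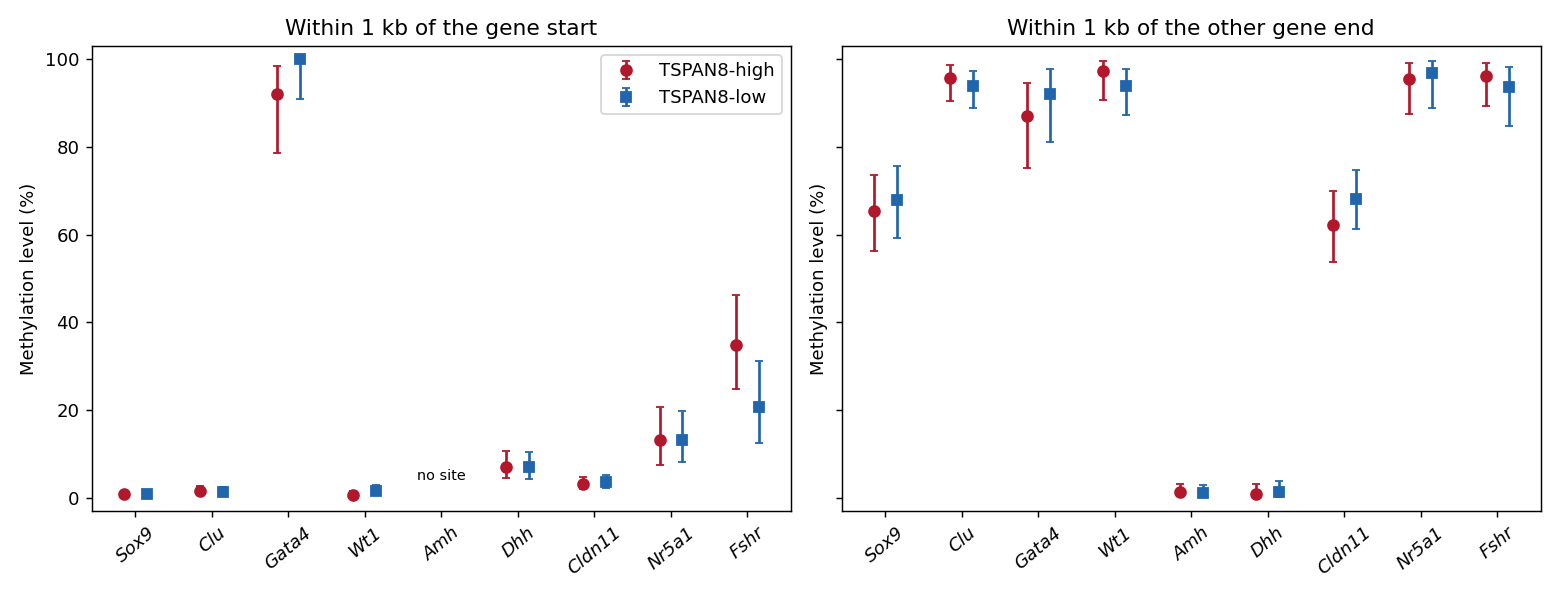
Methylation level (%) within 1 kb of the gene start (left) and of the other gene end (right), circles for TSPAN8-high and squares for TSPAN8-low, with 95% exact intervals that cover counting error. Within 1 kb of the start, Sox9, Clu, Wt1 and Cldn11 lie below 4% in both libraries. The listed Clu sites of that window are all downstream of the start. Dhh lies at 7.07% and 6.98%, Nr5a1 at 13.2% and 13.1%, and Fshr at 34.9% and 20.7%. Gata4 lies above 90%, with 4 cytosines, of which 1 is at -10 bp and the others are from -934 to -897 bp. The start of Gata4 is the upstream end of the gene as annotated, and possible starts inside the gene were not examined. Amh has no listed site within 1 kb of its start.

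For setting against all genes, 1 end window was taken per gene, 1 kb either side of the start where the promoter table gives a strand and otherwise of the gene end with more listed CpGs. For Amh and Gata4 that end is the downstream one by the known direction of transcription. With these windows 7 of 9 genes were below 20% in both libraries, against 82.6% of 15539 windows. With the start by known direction it was 6 of 7 genes measured. A window was had for 33 of 40 other Sertoli genes, 30 of them below 20% in both, with Cbx2, a Polycomb subunit needed for testis formation, at 0.440% in TSPAN8-high cells and 0.483% in TSPAN8-low cells, and Inhbb, the inhibin beta B subunit, at 0.382% and 0.487%. The 3 others, named after their values were seen, were Trf, transferrin (46.3% and 53.7%), Ptgds, prostaglandin D synthase (95.4% and 87.0%), and Defb36 (31.1% and 21.5%). Of 11 Leydig cell genes 8 had a window, 5 of them below 20% in both, with Ptch1, the receptor of DHH, at 1.20% and 0.595% and Pdgfra at 2.33% and 4.61%. The other Leydig genes with a window, also named after their values were seen, were Cyp17a1 (96.3% and 92.5%), Star (93.8% and 96.0%) and Insl3 (16.5% and 25.8%). Of 8 peritubular myoid genes 4 were below 20% in both, with Tpm2 at 0.871% and 1.81% and Tagln at 38.2% and 39.0%. None of these lists had a called member, and the lists were not tested against each other.

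The second question was whether the fractions differed at these genes. A feature was called at an adjusted p below 0.05, from Fisher's exact test (two-sided, reads pooled, Benjamini-Hochberg over all features of its kind), together with a difference of at least 10 percentage points, or 20 for a single cytosine. No span of the 9 genes was called, against 1.15% of all spans. No end window was called, against 0.734% of all windows, and no tile of 154, against 0.268% of 584828 tiles. No single cytosine of 2258 was called, against 0.00111% of all. At an unadjusted p below 0.05 there were 4 of 9 spans (against 30.1% of all spans), 0 of 9 end windows (against 17.1%) and 16 of 154 tiles (10.4%, against 8.6%) among the members. At that level 22 member cytosines differed, 14 higher and 8 lower in TSPAN8-high cells, which is 0.974% of them against 1.46% of all (0.704% higher and 0.761% lower). The authors' deposited table classes the same number, 14 as hypermethylated and 8 as hypomethylated, without adjustment. That is 0.974% of the member cytosines, against 1.45% of all. The authors' p-values matched Fisher's exact test on these counts for 93.6% of cytosines, so their classes are not separate evidence. The smallest unadjusted p among the 22 member cytosines was that of a cytosine in Gata4 (chromosome 14, position 63270188). There 16 of 16 reads were methylated in TSPAN8-high cells and 10 of 22 in TSPAN8-low cells (Fisher's exact test, p = 0.000275, adjusted p = 0.866).

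No tested start differed past the threshold, with Clu read only downstream of its start. The 4 cytosines within 1 kb of the start of Gata4, in 3 CpGs and so under the minimum of 5 CpGs set for testing, differed by -7.89 percentage points (TSPAN8-high minus TSPAN8-low, 95% Newcombe interval -20.8 to 2.46). The difference was -0.0230 percentage points at Sox9 (95% Newcombe interval -0.792 to 0.736), 0.186 at Clu (-1.04 to 1.38), -0.925 at Wt1 (-2.22 to 0.131), and -0.266 at Cldn11 (-2.24 to 1.60). At Dhh it was 0.0940 (-4.11 to 4.32) and at Nr5a1 0.0544 (-8.12 to 8.76), where fewer reads leave a wider interval. Fshr had the largest difference, 14.2 percentage points higher in TSPAN8-high cells (0.506 to 27.2, Fisher's exact test, adjusted p = 0.309). It was not called, and within 2 kb of the start the levels were 35.7% in TSPAN8-high cells and 33.9% in TSPAN8-low cells, a difference of 1.72. With at least 10 reads 6 genes keep a window, and Fshr is not among them.

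Over whole spans, 3 of the 9 genes passed the adjusted p at any size of difference, as did 18.1% of all spans: Clu and Cldn11 lower (12.9% of all spans) and Dhh higher (5.24%) in TSPAN8-high cells. Clu was lower in TSPAN8-high cells, at 27.9% against 35.4% in TSPAN8-low cells, a difference of -7.48 percentage points (95% Newcombe interval -11.02 to -3.91, Fisher's exact test, adjusted p = 0.00089). Cldn11 was at 29.0% in TSPAN8-high cells and 34.4% in TSPAN8-low cells, a difference of -5.41 (-8.45 to -2.36, Fisher's exact test, adjusted p = 0.00628). Dhh was higher, at 16.1% in TSPAN8-high cells and 13.3% in TSPAN8-low cells, a difference of 2.82 (1.20 to 4.45, Fisher's exact test, adjusted p = 0.00718). The split of reads between low and high sites also differed between the libraries, and its part in these differences was not tested. Sites below 20% in both libraries took 69.9% of the reads of Clu in TSPAN8-high cells and 62.0% in TSPAN8-low cells, and 67.4% and 61.2% of those of Cldn11. In Dhh they took 80.4% in TSPAN8-high cells and 83.1% in TSPAN8-low cells. When the libraries were compared within each cytosine and the differences combined (Mantel-Haenszel), the values were 0.222 percentage points at Clu, -0.307 at Cldn11 and 0.911 at Dhh. No span of these genes passed the adjusted threshold in the matching Cochran-Mantel-Haenszel test. Nr5a1 stood farthest from 0 there, at -1.67, while its pooled difference was 2.07.

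**Figure D4:**
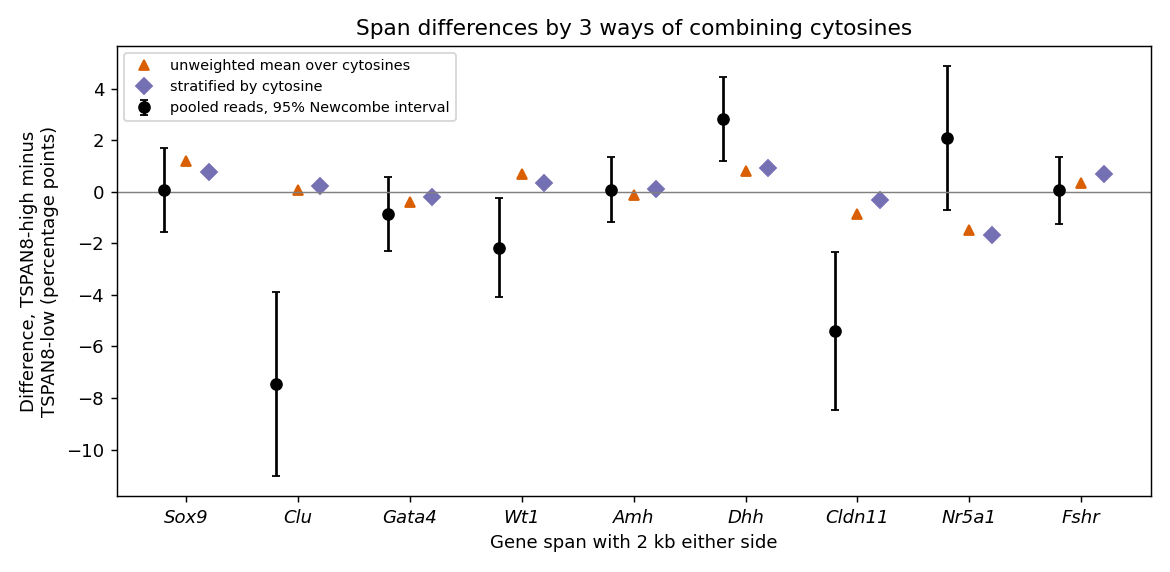
Difference in methylation over each gene span, TSPAN8-high minus TSPAN8-low, in percentage points; black circles pool reads and carry 95% Newcombe intervals, triangles average over cytosines and diamonds are stratified by cytosine. The pooled differences of Clu (-7.48) and Cldn11 (-5.41) lie far from their stratified values (0.222 and -0.307).

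Among tiles of 1 kb, 2 of 154 passed the adjusted p at any size, against 0.359% of all tiles. One lies in Dhh (chromosome 15, 98894001 to 98895000), inside its low stretch, with 46 CpGs at 2.76% in TSPAN8-high cells (31 of 1125 reads) and 0.392% in TSPAN8-low cells (6 of 1530 reads; Fisher's exact test, adjusted p = 0.000855). The other lies before the start of Wt1 (chromosome 2, 105125001 to 105126000), with 8 CpGs at 2.99% in TSPAN8-high cells (8 of 268 reads) and 11.7% in TSPAN8-low cells (29 of 247 reads; Fisher's exact test, adjusted p = 0.0399). That tile lies within Wt1os. Its unweighted means over cytosines were 8.50% in TSPAN8-high cells and 11.4% in TSPAN8-low cells. In the same tile the cytosines at -840 and -829 bp from the start had equal counts and may share reads. The cytosine at -1435 bp gave 10 of the 29 methylated reads of TSPAN8-low cells.

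The tile with the largest difference in each gene was not called in any. In Gata4 it was at 60.5% in TSPAN8-high cells and 80.9% in TSPAN8-low cells (chromosome 14, 63264001 to 63265000, 6 CpGs, Fisher's exact test, adjusted p = 0.170). In Fshr it was at 97.4% in TSPAN8-high cells and 77.5% in TSPAN8-low cells over 3 CpGs (chromosome 17, 89057001 to 89058000, Fisher's exact test, adjusted p = 0.378). That of Dhh was at 28.6% in TSPAN8-high cells and 12.8% in TSPAN8-low cells (5 CpGs), that of Nr5a1 at 0 in TSPAN8-high cells and 12.5% in TSPAN8-low cells (7 CpGs), and that of Wt1 at 97.7% in TSPAN8-high cells and 86.7% in TSPAN8-low cells (3 CpGs). These 5 places lie inside the genes and away from their starts. In the other 4 genes the largest tile difference was between -8.20 percentage points in Cldn11 and 5.04 in Sox9, with -5.65 in Clu and 0.921 in Amh. Differences in the 154 tiles ran from -20.4 to 19.9 percentage points, 74 of them higher and 75 lower in TSPAN8-high cells, and 6.49% reached 10 percentage points in size, against 8.05% of all tiles.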

How the data were processed

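DNA for the RRBS libraries was cut with BfaI, MseI and MspI and sequenced from both ends at 50 bp, per the labels' protocols. The authors deposited 1 table of CpG cytosines. The deposited methylation level is a fraction with 2 decimals, and the deposited coverage is a read count, nowhere below 5. A difference column, also a fraction, subtracts the TSPAN8-low level from that of TSPAN8-high. The authors' p-value column matched Fisher's exact test (relative tolerance 0.001) for 93.6% of cytosines. No aligner for these libraries is given in the sources used here; the submitters' processing notes list Bowtie, SICER, mm9 and mm10 for the series as a whole. Since 232506 of 232506 cytosines in promoter windows sat at a C of their strand in GRCm38.p6, positions were taken as mm10.

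Level times coverage, rounded, gave methylated reads (Python 3.11.15, numpy, pandas, scipy, numba). Summed coverage was 83658949 reads for TSPAN8-high and 83773700 for TSPAN8-low. Spans and windows needed 5 CpGs, tiles 3. One read can count at several CpGs, and reads lack molecular identifiers, so pooled p-values are too small and intervals (95%), like the 3 counts allowed where none was seen, cover counting error only. The promoter table gave a strand for 79.9% of protein-coding genes, and there the CpG-richer end was the start for 81.4% of genes with unequal ends. For the 6 members without one, distances follow the known direction of transcription. Both tests were run on simulated gene windows with independent reads at each cytosine, so reads shared between CpGs were not covered. All 9 genes were named, with called features, low stretches and the tile of largest difference in each; from other lists, called members or, with fewer than 2, the 2 with the most reads. The rule uses no methylation level, but members, lists and tests were chosen with earlier results of these data known.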

Additional observations from a re-analysis of the deposited data

How the results depend on the processing

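No paired analysis was possible because each fraction has 1 library. No span, end window, tile or cytosine of the 9 genes was called under any alternative that kept a minimum difference. Without one, 3 spans and 2 tiles were called. The number of end windows below 20% in both libraries was 7 of 9 (82.6% of all windows), 7 of 9 under unweighted means (83.0%), 7 of 7 within 500 bp (93.0%), 6 of 6 with at least 10 reads (92.9%) and 6 of 7 with starts by the known direction (82.6%). That last alternative, and the stratified test, were chosen after seeing the data. Some differences changed sign, none of them called where there was a test, and the causes were not tested. Under unweighted means, which have no test, the span differences became 0.0753 for Clu, 0.699 for Wt1, -0.130 for Amh and -1.50 for Nr5a1, the window differences 0.173 for Sox9, -0.158 for Dhh and -3.21 for Nr5a1, and that of the Clu tile 6.00, while the Amh window came to 0. With at least 10 reads the difference was -0.691 percentage points over the Sox9 span and 0.395 in the Cldn11 window. With at least 20 it was 0.543 over the Gata4 span, 0.629 over the Cldn11 span and 0.282 in the Cldn11 window. With 1 CpG per 100 bp it was -1.44 over the Sox9 span and -0.275 in the Dhh window. Stratified by cytosine it was 0.222 over the Clu span, 0.352 over the Wt1 span, -1.67 over the Nr5a1 span, 0.0821 in the Cldn11 window, -2.59 in the Nr5a1 window and 4.92 in the Clu tile. Without flanks it was -0.637 over Amh and -0.320 over Fshr, and without cytosines of other genes -0.417 over the Amh span. Within 500 bp it was 0.521 at Sox9, -0.195 at Clu, 0.654 at Wt1, -0.568 at Amh and 0.397 at Cldn11. Within 2 kb it was 0.650 at Sox9, -0.542 at Clu, -0.186 at Dhh, 0.509 at Cldn11 and -1.52 at Nr5a1. Over all genes, 227 spans were called, against 113 with 1 CpG per 100 bp, 37 stratified and 3582 with no minimum difference. Of end windows 114 were called, against 42 with at least 10 reads, 9 with at least 20, 22 with 1 CpG per 100 bp, 64 stratified, 46 within 500 bp, 220 within 2 kb and 689 with no minimum difference. Of tiles 1569 were called, against 254 with at least 20 reads and 149 with 1 CpG per 100 bp. Of cytosines 75 were called, against 153 with at least 10 reads, 176 with at least 20, 38 without the deepest 0.1%, 155 with strands pooled and 177 with no minimum difference. At a median of 10 reads, a difference at 1 cytosine must be large to pass the adjustment.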
